A study of Mus musculus with 12 samples.

Results

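The genes described here make and assemble ribosomes in the nucleolus. They were 38 listed mouse genes, chosen by name as a growth programme linked to the transcription factor Myc, and 35 of them were measured among 19938 genes in all. The other 3 were left out: Ppan was covered only by a probe set shared with another gene, and no probe set with a single gene symbol was matched to Noc2l or Npm3. Each gene was read from its brightest probe set on a single gene. That choice can depend on the groups in which a probe set is bright, as shown for Fbl below.

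Ribosome production starts when RNA polymerase I transcribes ribosomal DNA into a long precursor RNA. Small nucleolar ribonucleoproteins (snoRNPs) then guide chemical changes on that RNA, with the box C/D class adding methyl groups and the box H/ACA class converting uridine to pseudouridine. Assembly factors cut and fold the RNA and add ribosomal proteins along separate small and large subunit routes, and growing or dividing cells are known to keep this pathway active. Of the measured members, 5 act in RNA polymerase I transcription, 3 in box C/D snoRNPs, 3 in box H/ACA snoRNPs, 8 in small subunit assembly and 11 in large subunit assembly, and 5 are abundant nucleolar proteins.

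RNA from 12 cultures or sorted cell samples was hybridised to Affymetrix Mouse Gene 1.0 ST arrays, in a study of how astrocytes are turned into induced pluripotent stem cells (iPSCs). Astrocytes (3 arrays) were Sox1-GFP-negative cells sorted from cortical cultures of mice at postnatal day 3, grown in DMEM/F12 with 10% serum. The day 6 cells (3 arrays, labelled intermediate-state cells) were such astrocytes infected with retroviruses for Oct4, Klf4, Sox2 and c-Myc and sorted as Sox1-GFP-positive at day 6, after culture in medium for embryonic stem cells that held the cytokine LIF. Neural stem cells (2 arrays) came from the telencephalon of embryos aged 12.5 to 14.5 days and grew with N2, bFGF and EGF. Astrocyte iPSCs (2 arrays) and the iPSCs from mouse embryonic fibroblasts (MEF iPSCs, 2 arrays, the single line iPS-MEF-Ng-20D-17) were mature lines grown with LIF on mitomycin C-treated MEF feeders. All groups but MEF iPSCs carried the Sox1-GFP reporter, which leaves them Sox1+/-, and the MEF line carried Nanog-GFP-IRES-Puro. Medium, age, sorting and reporter therefore change with the group. The design text calls the replicates biological, but no label says which animals or cultures they came from, and the p-values reflect only how far these samples spread, in part perhaps for technical reasons.

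Values are log2 of the deposited linear intensities, and array medians over all probe sets lay between 97.9 and 104.9 intensity units. Lists of 8 marker genes were used to check the labels, by summed intensity over the measured genes. The astrocyte list reached 16403 to 18735 in astrocytes and 1508 to 1595 in day 6 cells. The pluripotency list reached 16778 to 19978 in the iPSC groups and 1007 to 1095 in day 6 cells. The neural stem cell list had 7 of 8 genes measured. Its sum reached 18302 to 18839 in neural stem cells, 15064 to 16995 in astrocytes and 1488 to 1558 in day 6 cells. Of the 7 genes, 6 were lower in day 6 cells than in astrocytes, among them Olig2 (mean log2 day 6 level 6.36), Nes (7.35) and Fabp7 (7.43). Sox1 went the other way, at 8.40 in day 6 cells, 8.13 in astrocytes and 8.26 in neural stem cells. Day 6 cells were sorted as Sox1-GFP-positive and astrocytes as negative, so the direction of Sox1 is no independent check of these labels. Neuron genes stood at 6670 to 10221 in neural stem cells, 6554 to 7906 in astrocytes and 5277 to 5452 in day 6 cells. Stmn2 was the brightest of these 8 genes in astrocytes (mean log2 12.44) and in day 6 cells (12.22), so the sum rests largely on it there. Of the 8, 6 were lower in day 6 cells than in neural stem cells by a log2 fold of at least 1, while Stmn2 was higher. Likewise, 6 of the 8 were higher in neural stem cells than in astrocytes by at least that fold, Dcx most (3.95), while Stmn2 was lower (-1.55). The sums of these 2 groups hide that difference. Oligodendrocyte lineage genes (7 of 8 measured) ran from 793 to 1804 and microglia genes from 513 to 975 over all groups. Fibroblast and feeder genes summed to 9323 to 9839 in astrocytes, 751 to 809 in day 6 cells, 1307 to 1707 in neural stem cells, 3263 to 5768 in astrocyte iPSCs and 2729 to 2892 in MEF iPSCs. The brightest of them in astrocytes were Ogn (mean log2 12.25) and Thy1 (11.79). In such bulk RNA, a lower share of expressing cells and less RNA per cell cannot be told apart.

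Ribosome biogenesis genes were lowest in astrocytes, higher in neural stem cells and higher again in day 6 cells. This order of the 3 group means held for 35 of 35 members, against 21.2% of all genes. Astrocytes had the lowest of the 5 group means for 35 of 35 members, against 27.5% of all genes. The complete order of astrocytes, neural stem cells, day 6 cells and then both iPSC groups held for 23 members, against 7.22% of all genes. The highest mean was in astrocyte iPSCs for 20 members, in MEF iPSCs for 9 and in day 6 cells for 6, which were Polr1e, Fbl, Noc4l, Nop16, Rrs1 and Ncl. On the other probe set of Fbl, MEF iPSCs were highest (9.66, against 9.62 in day 6 cells). For Ncl, astrocyte iPSCs were only 0.01 below day 6 cells. Relative to each gene's astrocyte mean, the median member stood at 0.10, 0.01 and -0.13 on the astrocyte arrays, 1.76, 1.77 and 1.77 on the day 6 arrays, and 1.17 and 1.23 on the neural stem cell arrays. It stood at 1.92 and 1.80 in astrocyte iPSCs and at 1.93 and 1.86 in MEF iPSCs. The arrays of a group thus lay close together, and the steps from astrocytes to neural stem cells and to day 6 cells were larger than the spread within those groups, while the iPSC arrays lay only slightly above the day 6 arrays.

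**Figure D1:**
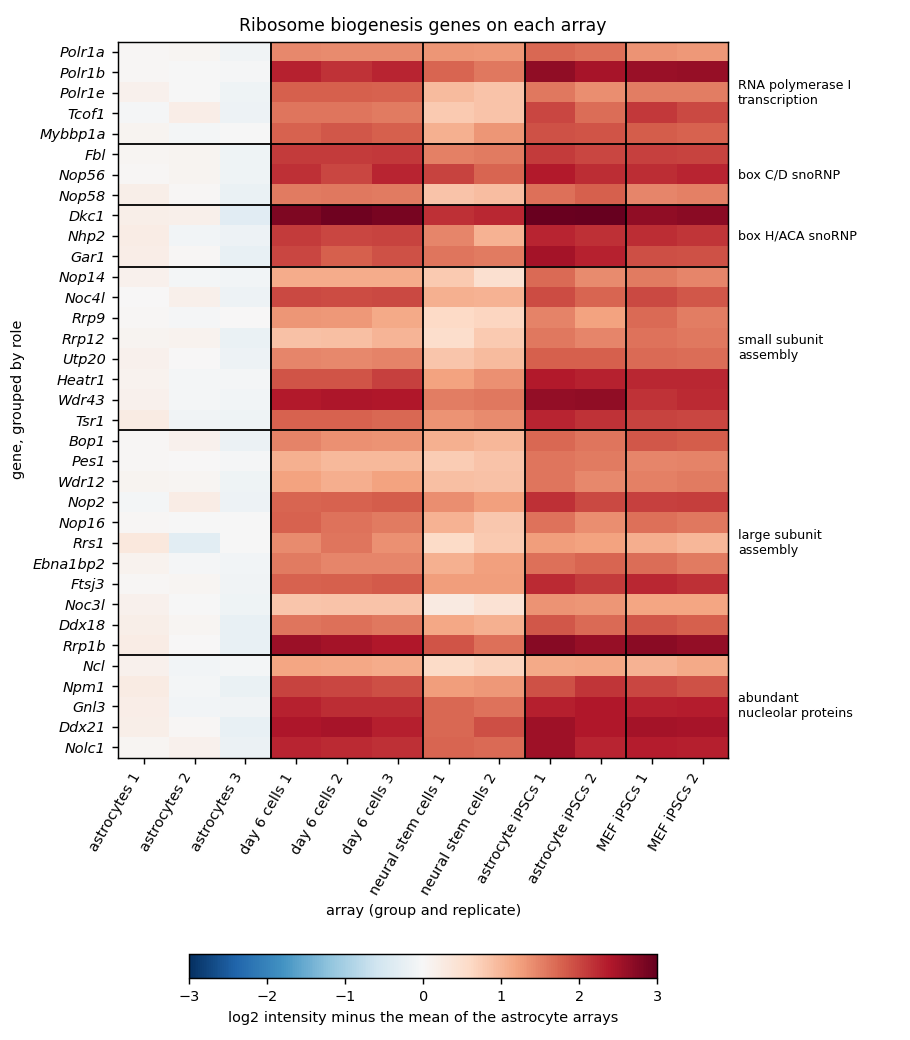
Each row is one of the 35 measured genes and each column one of the 12 arrays, with genes grouped by role and black lines between roles and between groups. Colour gives the log2 intensity minus the mean of the astrocyte arrays, from -3 (blue) to 3 (red). The 3 astrocyte columns are pale, the neural stem cell columns are lighter red than the day 6 columns, and Dkc1 is among the darkest rows.

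Day 6 cells were compared with the astrocytes they came from. Of 35 members, 33 rose and 0 fell at an adjusted p under 0.05 and a log2 fold change of at least 1 (limma with Benjamini-Hochberg adjustment over all genes), where 6.75% of all genes were called higher and 10.1% lower. The median member was 3.42-fold higher (log2 1.77), beside a median of 0.04 over all genes. Without the fold limit, 35 of 35 rose and 0 fell, against 23.8% and 25.1% of all genes, and the largest adjusted p was 5.2e-06. The day 6 and astrocyte arrays did not overlap for any of the 35, against 28.6% of all genes that were higher without overlap. Role medians on the log2 scale ran from 1.50 for large subunit assembly and 1.61 for small subunit assembly through 1.78 for RNA polymerase I transcription to 2.04 for box H/ACA, 2.11 for box C/D and 2.24 for the abundant nucleolar proteins, and differences between these medians were not tested. The box C/D median is the value of Fbl, whose other probe set rose by 1.39, so its place in this order depends on the probe set. Near the fold limit, Pes1 lay just inside (1.01), and Rrp12 (0.94) and Noc3l (0.86) lay just outside. All 35 were among the 11905 genes above the array median on at least 2 arrays, of which 11.2% were called higher. The astrocyte, neural stem cell and fibroblast marker sums given above were lower in day 6 cells than in astrocytes, and their part in these differences was not tested.

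Among genes of RNA polymerase I transcription, all 5 rose in day 6 cells. Polr1b encodes the second largest subunit of the enzyme. Its log2 level was 7.41, 7.37 and 7.35 on the astrocyte arrays, 9.69, 9.55 and 9.65 on the day 6 arrays, 9.12 and 8.96 in neural stem cells, 10.03 and 9.86 in astrocyte iPSCs, and 9.98 and 10.00 in MEF iPSCs. These groups did not overlap except for the iPSC groups with each other, and Polr1b was 4.77-fold higher in day 6 cells than in astrocytes (log2 2.25 ± 0.07 SE, limma adjusted p = 3.3e-10). Polr1e, a smaller subunit that helps the enzyme initiate and elongate, read 7.69, 7.54 and 7.43 in astrocytes and 9.34, 9.34 and 9.33 in day 6 cells, a rise of 1.78 ± 0.08. It then read 9.14 and 8.94 in astrocyte iPSCs and 9.08 and 9.10 in MEF iPSCs, below every day 6 array. Polr1a, the largest subunit, rose by 1.42 ± 0.06, Tcof1, the treacle protein that recruits the polymerase to ribosomal DNA, by 1.59 ± 0.10, and Mybbp1a, a nucleolar Myb-binding protein, by 1.81 ± 0.07.

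The 3 box C/D members rose by 1.56 to 2.16. Nop56, a core scaffold protein of the particle, read 9.28, 9.33 and 9.11 in astrocytes, 11.43, 11.24 and 11.53 in day 6 cells, 11.27 and 10.99 in neural stem cells, 11.63 and 11.46 in astrocyte iPSCs, and 11.45 and 11.53 in MEF iPSCs. Astrocytes stood apart from every other group, and day 6 cells overlapped with neural stem cells and with both iPSC groups. Nop56 was 4.46-fold higher in day 6 cells than in astrocytes (log2 2.16 ± 0.10). Fbl, the methyltransferase of the particle, rose by 2.11 ± 0.07 on its brighter probe set and by 1.39 on the other. The size of its rise thus depended on the probe set. The kept probe set was dimmer than the other in astrocytes (mean log2 8.03 against 8.23) and brighter in day 6 cells (10.14 against 9.62). Choosing by brightness therefore kept the larger rise for Fbl. It also did so for Ddx18 (1.62 against 1.49), while for Wdr12 it kept the smaller (1.17 against 1.31). Nop58, the second scaffold protein, rose by 1.56 ± 0.09.

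Among the box H/ACA members, Dkc1 had the largest rise of all 35. Dkc1 encodes dyskerin, the pseudouridine synthase, which is also part of telomerase. Its log2 level was 8.36, 8.33 and 7.85 in astrocytes, 10.98, 11.11 and 11.02 in day 6 cells, 10.37 and 10.44 in neural stem cells, 11.15 and 11.18 in astrocyte iPSCs, and 10.83 and 10.90 in MEF iPSCs. Astrocyte replicate 3 was the lowest array, and no other group reached the astrocyte range. The day 6 level was 7.25-fold the astrocyte level (log2 2.86 ± 0.11, limma adjusted p = 2.7e-09). The partner proteins of the particle, Nhp2 and Gar1, rose by 2.04 ± 0.12 and 1.90 ± 0.10.

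In small subunit assembly, 7 of 8 members passed the fold limit. Wdr43, a component of the complex that first binds the precursor RNA, read 8.86, 8.69 and 8.66 in astrocytes, 11.13, 11.17 and 11.13 in day 6 cells, 10.27 and 10.32 in neural stem cells, 11.37 and 11.39 in astrocyte iPSCs, and 10.91 and 10.98 in MEF iPSCs. None of the 5 groups overlapped with another for this gene, and it was 5.30-fold higher in day 6 cells than in astrocytes (log2 2.41 ± 0.06). Other proteins of that complex, the small subunit processome, rose as well: Heatr1 by 1.94 ± 0.07, Utp20 by 1.47 ± 0.07 and Rrp9, which binds the U3 snoRNA, by 1.25 ± 0.09. Noc4l and its partner Nop14 rose by 1.97 ± 0.08 and 1.12 ± 0.10, and Tsr1, a late factor on the small subunit precursor, by 1.75 ± 0.09. Rrp12, an export factor for the subunit precursors, read 7.65, 7.67 and 7.36 in astrocytes and 8.44, 8.47 and 8.57 in day 6 cells. Those arrays did not overlap, and the difference of 0.94 ± 0.10 passed the adjusted p (5.2e-06, limma) but not the fold limit.

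In large subunit assembly, 10 of 11 members passed the fold limit. Rrp1b, a nucleolar partner of preribosomal particles, read 7.47, 7.25 and 7.02 in astrocytes, 9.82, 9.74 and 9.66 in day 6 cells, 9.14 and 8.91 in neural stem cells, 9.99 and 9.87 in astrocyte iPSCs, and 9.95 and 9.89 in MEF iPSCs. Day 6 cells lay above neural stem cells and just under both iPSC groups, and Rrp1b was 5.63-fold higher in day 6 cells than in astrocytes (log2 2.49 ± 0.11). The PeBoW complex, needed to process the large subunit RNA, is made of Pes1, Bop1 and Wdr12, and its genes rose by 1.01 ± 0.06, 1.40 ± 0.08 and 1.17 ± 0.07. Ftsj3 and Nop2, which encode RNA methyltransferases, rose by 1.80 ± 0.06 and 1.77 ± 0.10. The assembly factors Nop16, Ddx18, Ebna1bp2 and Rrs1 rose by 1.65, 1.62, 1.50 and 1.47. Noc3l, a factor of the large subunit precursor, read 8.37, 8.22 and 8.09 in astrocytes and 9.07, 9.09 and 9.09 in day 6 cells. It had the smallest difference of the 35 members, 0.86 ± 0.07.

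All 5 abundant nucleolar proteins rose in day 6 cells. Ddx21, an RNA helicase that links RNA polymerase I transcription with RNA processing, read 8.61, 8.45 and 8.20 in astrocytes, 10.85, 10.90 and 10.76 in day 6 cells, 10.15 and 10.35 in neural stem cells, 10.96 and 10.82 in astrocyte iPSCs, and 10.91 and 10.90 in MEF iPSCs. Day 6 cells and both iPSC groups overlapped, and each lay above neural stem cells, which lay above astrocytes. Ddx21 was 5.35-fold higher in day 6 cells than in astrocytes (log2 2.42 ± 0.10). Gnl3, or nucleostemin, a GTP-binding protein named for its abundance in stem cells, rose by 2.25 ± 0.08, and Nolc1, a chaperone of snoRNPs, by 2.24 ± 0.09. Npm1, the histone and ribosome chaperone nucleophosmin, rose by 1.99 ± 0.10. Ncl, or nucleolin, rose least in this group, by 1.16 ± 0.07.

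**Figure D2:**
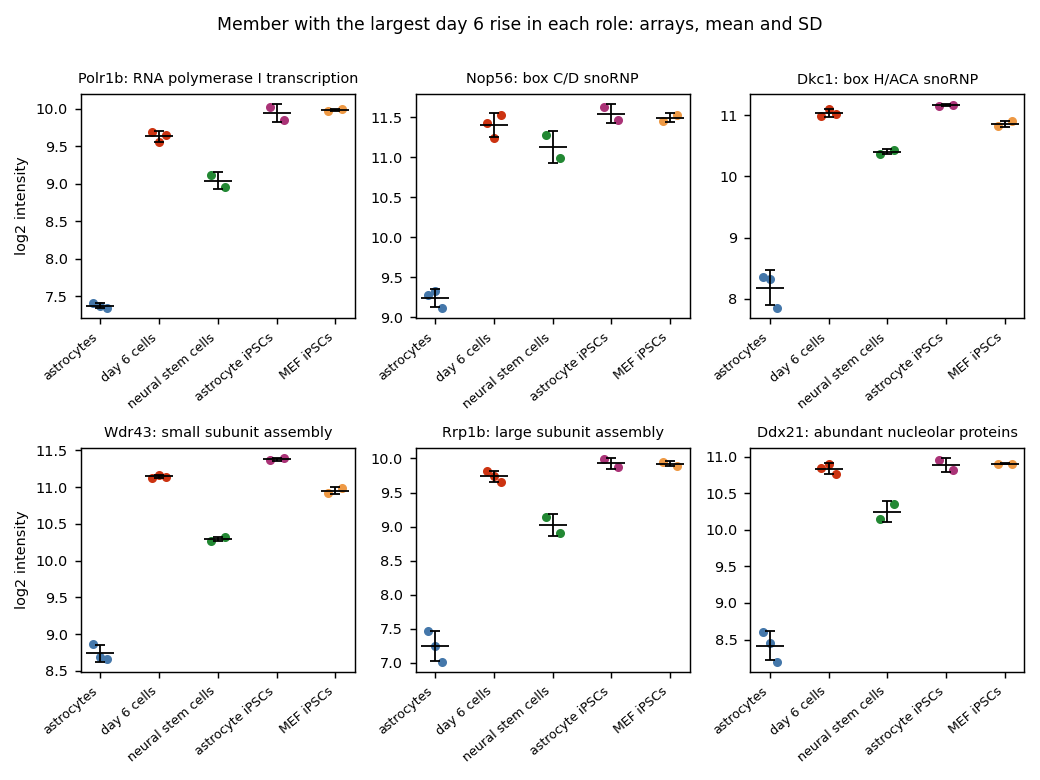
Each panel shows the gene with the largest day 6 rise in its role, with log2 intensity on the vertical axis, 1 point per array, and a black bar for the group mean with its SD (n = 3 for astrocytes and day 6 cells, n = 2 otherwise). Vertical axes differ between panels. In each of the 6 panels the astrocyte arrays are the lowest and the neural stem cell mean lies below the day 6 mean.

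Neural stem cells, compared with astrocytes, had higher levels of the same pathway. Of 35 members, 22 rose and 0 fell past the fold limit, where 6.49% of all genes were called higher and 8.10% lower, and 35 rose and 0 fell without it, against 22.6% and 23.3% of all genes. The median member was 2.30-fold higher (log2 1.20, beside -0.03 over all genes). Dkc1 rose most (2.23 ± 0.13), and the largest rise in each other role was that of Nop56 (1.89 ± 0.11), Ddx21 (1.83 ± 0.11), Rrp1b (1.78 ± 0.12), Polr1b (1.66 ± 0.08) and Wdr43 (1.56 ± 0.07). Noc3l read 8.49 and 8.65 in neural stem cells, above the astrocyte arrays, with the smallest difference (0.34 ± 0.08, limma adjusted p = 0.0047, and 0.062 without neural stem cell replicate 2). The box H/ACA and box C/D medians were 1.59 and 1.53, and the small and large subunit medians were 0.97 and 1.03. The box C/D median is again the value of Fbl, whose other probe set gave 1.18. This comparison and the day 6 comparison above share the 3 astrocyte arrays.

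Day 6 cells, set directly against neural stem cells, had slightly higher levels of nearly every member. None of the 35 passed the fold limit in either direction by limma, where 2.94% of all genes were called higher and 5.94% lower. At an unadjusted p under 0.05, 34 were higher, and the share of all genes at that limit was not counted. Without the fold limit, 32 of 35 were higher and 0 lower at an adjusted p under 0.05, against 20.0% of all genes higher and 18.4% lower. The median member was 1.49-fold higher (log2 0.58, beside 0.07 over all genes), and 35 of 35 differences were positive. Day 6 and neural stem cell arrays did not overlap for 34 members, against 39.7% of all genes that were higher without overlap.

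The largest differences from neural stem cells came from genes of several roles. Noc4l, which acts with Nop14 on the small subunit, read 9.46, 9.44 and 9.45 in day 6 cells and 8.55 and 8.51 in neural stem cells, a 1.90-fold difference (log2 0.92 ± 0.09, limma adjusted p = 1.2e-05). Polr1e read 8.51 and 8.41 in neural stem cells and was 1.84-fold higher in day 6 cells (0.88 ± 0.09). For both genes every day 6 array was above every neural stem cell array by more than the spread within either group. Wdr43 differed by 0.85 ± 0.07, and in the remaining roles Rrs1 (0.79 ± 0.15), Nhp2 (0.78 ± 0.13), Npm1 (0.71 ± 0.11) and Nop58 (0.68 ± 0.10) differed most. At the other end, Polr1a (0.11 ± 0.07, adjusted p = 0.22), Rrp12 (0.27 ± 0.11, adjusted p = 0.068) and Nop56 (0.27 ± 0.11, adjusted p = 0.081) did not pass. Polr1a read 9.39, 9.38 and 9.38 in day 6 cells and 9.28 and 9.26 in neural stem cells, close but without overlap. Nop56 passed when either day 6 replicate 2 (adjusted p = 0.039) or neural stem cell replicate 1 (adjusted p = 0.032) was left out, and Rrp12 passed with arrays centred on the median (0.042) or without neural stem cell replicate 2 (0.032). Gar1, at 0.32 ± 0.11 (adjusted p = 0.043), did not pass with 16 subtracted before log2 (0.056), without day 6 replicate 1 (0.12) or 3 (0.086), or without neural stem cell replicate 1 (0.11) or 2 (0.16). Wdr12 did not pass under 5 alternatives (adjusted p from 0.054 to 0.10), and Pes1 did not under 4 (0.058 to 0.15). Without neural stem cell replicate 1, Tsr1 (0.082) and Ebna1bp2 (0.060) fell short as well, and without replicate 2 so did Nop14 (0.052), Bop1 (0.053) and Nop2 (0.056).

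**Figure D3:**
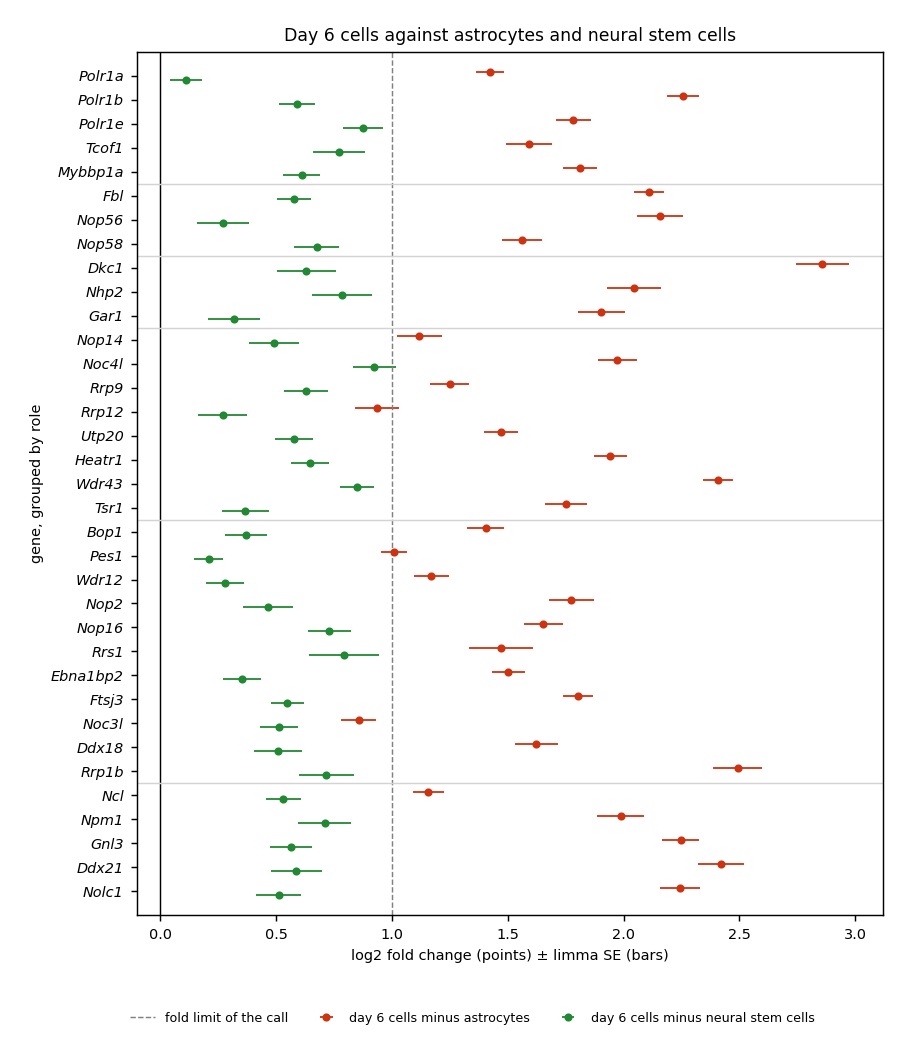
Points are log2 fold changes with limma SE bars for the 35 genes, for day 6 cells minus astrocytes (red) and day 6 cells minus neural stem cells (green), and the dashed line is the fold limit at 1. The red points run from 0.86 to 2.86 and the green points from 0.11 to 0.92, all to the right of 0. The day 6 arrays are common to both series.

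Astrocyte iPSCs, set against day 6 cells, showed small further differences in both directions. No member passed the fold limit by limma, where 3.29% of all genes were called higher and 2.82% lower. At an unadjusted p under 0.05, 17 were higher and 1 lower, and the share of all genes at that limit was not counted. Without the fold limit, 15 of 35 were higher and 1 lower at an adjusted p under 0.05, against 15.5% of all genes higher and 14.0% lower. The median difference was 0.20, beside -0.03 over all genes. Of the 15, 6 belonged to small subunit assembly, 6 to large subunit assembly, 2 to RNA polymerase I transcription and 1 (Gar1, 0.50 ± 0.11) to box H/ACA, while 0 of 3 box C/D members and 0 of 5 abundant nucleolar proteins passed. Without astrocyte iPSC replicate 1, 6 were higher and 1 lower.

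The largest rises from day 6 to astrocyte iPSCs were those of Rrp12 and Pes1. Rrp12 read 9.14 and 9.02 in astrocyte iPSCs, above the 3 day 6 arrays, a difference of 0.58 ± 0.11 (limma adjusted p = 0.0014). Pes1 read 10.29, 10.21 and 10.21 in day 6 cells and 10.84 and 10.79 in astrocyte iPSCs, a difference of 0.58 ± 0.06 (adjusted p = 2.8e-05). After Gar1, the next were Noc3l, Tsr1 and Nop14, with 0.48 ± 0.08, 0.48 ± 0.10 and 0.44 ± 0.11. The day 6 arrays enter both these differences and those against astrocytes, and no relation between the 2 was tested. Polr1e was the 1 lower member, at -0.30 ± 0.09 (adjusted p = 0.020), and it did not pass without day 6 replicate 1 (adjusted p = 0.0503), day 6 replicate 2 (0.052) or astrocyte iPSC replicate 2 (0.21). Ncl (-0.01 ± 0.07), Npm1 (0.04 ± 0.11) and Ddx21 (0.05 ± 0.11) differed by less than their SE from day 6 cells.

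MEF iPSCs came from other cells and carry another reporter, and they too lay close to day 6 cells. No member passed the fold limit by limma, where 3.18% of all genes were called higher and 2.93% lower. At an unadjusted p under 0.05, 14 were higher and 3 lower, and the share of all genes at that limit was not counted. At an adjusted p under 0.05 with no fold limit, 11 of 35 were higher and 0 lower, against 15.0% and 14.7% of all genes, and 6 were higher without MEF iPSC replicate 1. The median difference was 0.11, beside -0.02 over all genes. Rrp12 read 9.20 and 9.14 and was higher than in day 6 cells by 0.68 ± 0.11, followed by Pes1 (0.46 ± 0.06), Tcof1 (0.46 ± 0.11), Bop1 (0.43 ± 0.09) and Ftsj3 (0.43 ± 0.07). Rrs1 read 9.03, 9.22 and 8.98 in day 6 cells and 8.71 and 8.60 in MEF iPSCs, lower on both arrays, and its difference of -0.43 ± 0.15 did not pass (adjusted p = 0.058). Rrs1 and Polr1e (-0.25 ± 0.09) passed as lower once dim genes were left out, with adjusted p of 0.034 and 0.049. In both iPSC groups the fibroblast and feeder sum was above its day 6 level, as given above, and its part in these differences was not tested. The 2 iPSC comparisons share the day 6 arrays.

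Between the iPSC groups, most members differed little. No member passed the fold limit by limma, where 0.461% of all genes were called higher in astrocyte iPSCs and 0.281% lower. At an unadjusted p under 0.05, 3 were higher and 1 lower, and the share of all genes at that limit was not counted. At an adjusted p under 0.05 with no fold limit, 3 of 35 were higher in astrocyte iPSCs and 0 lower, against 3.28% and 2.49% of all genes. The differences ran from -0.27 for Rrp9 to 0.49 for Gar1, with SE between 0.07 and 0.17 and a median of 0.05. Gar1 read 10.54 and 10.34 in astrocyte iPSCs and 9.97 and 9.94 in MEF iPSCs (0.49 ± 0.12, adjusted p = 0.043). Wdr43, whose array values are given above, was higher by 0.43 ± 0.08 (adjusted p = 0.0085). Polr1a read 9.67 and 9.61 against 9.32 and 9.25 (0.36 ± 0.07, adjusted p = 0.017). For these 3 genes both astrocyte iPSC arrays lay above both MEF iPSC arrays, and at most 1 of the 3 passed when any single iPSC array was left out.

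Astrocyte iPSCs, compared with the astrocytes, had higher levels of all 35 members past the fold limit (35 of 35, against 9.44% of all genes higher and 11.4% lower). The same 35 passed without the fold limit, against 24.8% higher and 26.2% lower. The median was 3.59-fold (log2 1.85, beside 0.01 over all genes), from Ncl at 1.14 ± 0.07 to Dkc1 at 2.98 ± 0.13. Rrp1b (2.68 ± 0.12), Wdr43 (2.64 ± 0.07) and Polr1b (2.56 ± 0.08) followed Dkc1. This comparison shares the astrocyte arrays with the earlier ones.

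**Figure D4:**
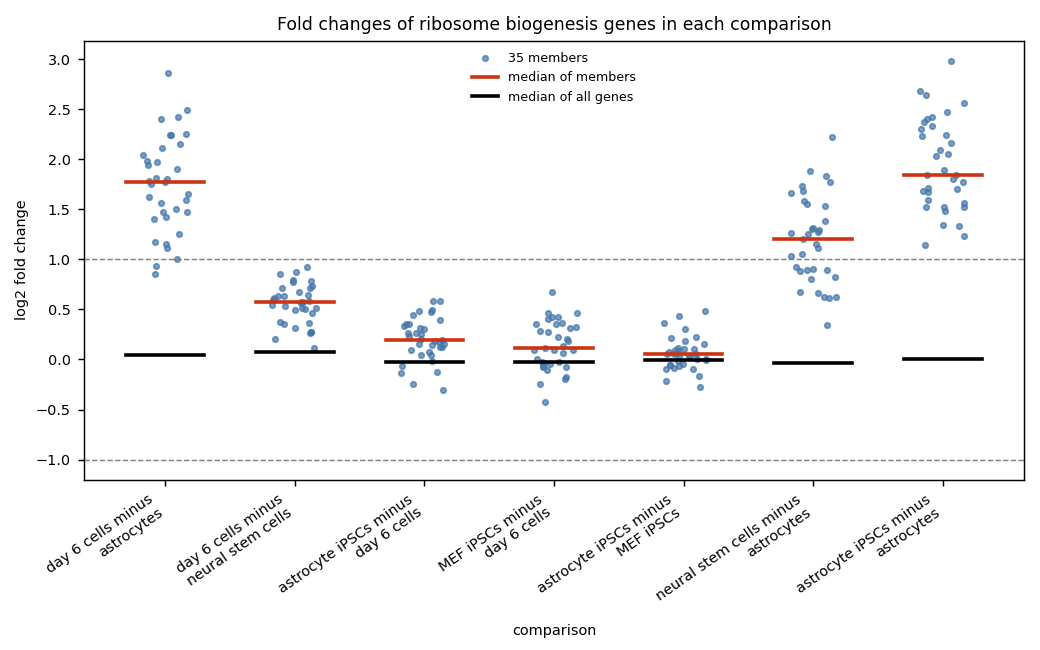
Points are the log2 fold changes of the 35 genes in each of the 7 comparisons, with a red bar for their median, a black bar for the median of all genes and dashed lines at the fold limits of 1 and -1. The 3 comparisons against astrocytes have medians of 1.77, 1.20 and 1.85, and the 4 others lie between -0.43 and 0.92. Comparisons share arrays, so the columns are not independent.

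Most other factors of the pathway, from lists that do not contain the members, were also higher in day 6 cells than in astrocytes, and the difference between those lists and the members was not tested. Of 116 measured assembly and transcription factors outside the members, 71 rose and 0 fell in day 6 cells against astrocytes, with a median of 1.20. Of all genes, 6.75% rose and 10.1% fell in that comparison. By role, 5 of 13 other RNA polymerase I factors rose (median 0.83), as did 6 of 10 other snoRNP and assembly factors (1.17), 28 of 46 small subunit factors (1.25) and 32 of 47 large subunit factors (1.25). Taf1d, a subunit of the RNA polymerase I promoter factor SL1, rose by 4.09 ± 0.19, Lyar, a nucleolar factor of growing cells, by 2.62 ± 0.09, Nol9, a kinase acting on precursor RNA, by 2.16 ± 0.05 and Utp4, an early small subunit factor, by 1.98 ± 0.09. Without the fold limit 108 of the 116 rose and 2 fell, against 23.8% and 25.1% of all genes. Against neural stem cells, 1 of the 116 passed the fold limit in day 6 cells, the RNA polymerase I subunit Polr1f (1.17 ± 0.11), where 2.94% of all genes were called higher. Without the fold limit 91 were higher and 1 lower, against 20.0% and 18.4% of all genes, with a median of 0.46. Neural stem cells had 32 of the 116 higher than astrocytes, against 6.49% of all genes, with a median of 0.69. Of the RNA exosome, which trims precursor RNA, 7 of 13 genes rose in day 6 cells against astrocytes (median 1.14), with its nuclease Dis3 at 2.15 ± 0.11.

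Genes that make up the ribosome itself showed smaller differences. Of 80 cytosolic ribosomal protein genes, 55 were measured, and 23 rose and 0 fell in day 6 cells against astrocytes, with a median of 0.92. Of all genes, 6.75% rose and 10.1% fell there. Many of these genes have near-identical copies in the genome, so their probe sets are less certain. Against neural stem cells, 0 of 55 passed the fold limit by limma, where 2.94% of all genes were called higher. Without it 30 were higher, against 20.0% of all genes, and the median was 0.25. For the ribosome of mitochondria, 4 of 22 genes rose against astrocytes, with a median of 0.66.

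Markers of cell division were measured beside the pathway. Of 19 measured proliferation genes, 19 rose in day 6 cells against astrocytes (median 1.80) and 19 rose in neural stem cells against astrocytes (median 1.75). The shares of all genes that rose were 6.75% and 6.49%. In day 6 cells against neural stem cells, 0 of 19 passed the fold limit by limma, where 2.94% of all genes were called higher. Without it 3 were higher at an adjusted p under 0.05, against 20.0% of all genes. The median was 0.05, where that of the 35 members was 0.58. Whether dividing cells account for any part of the members' differences was not tested.

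Of 19 other growth genes linked to Myc, 14 rose and 0 fell in day 6 cells against astrocytes (median 1.32), against 6.75% and 10.1% of all genes. Tfrc, the transferrin receptor, led them (3.40 ± 0.17). The probe set of Myc itself went the other way. Its log2 level was 8.78, 8.45 and 8.21 in astrocytes, 7.35, 7.42 and 7.14 in day 6 cells, 10.32 and 10.04 in neural stem cells, 8.89 and 8.69 in astrocyte iPSCs, and 9.50 and 9.37 in MEF iPSCs. Day 6 cells were the lowest group with no overlap, at -1.18 ± 0.14 against astrocytes and -2.87 ± 0.15 against neural stem cells. Astrocyte iPSCs were higher than day 6 cells by 1.49 ± 0.15. Mycn, the family member active in neural progenitors and pluripotent cells, read 6.75, 6.46 and 6.64 in astrocytes, 7.72, 7.60 and 7.74 in day 6 cells, 7.54 and 7.93 in neural stem cells, 9.94 and 10.03 in astrocyte iPSCs, and 9.63 and 9.04 in MEF iPSCs. Day 6 cells and neural stem cells overlapped and lay between astrocytes and the iPSC groups, and Mycn rose by 1.07 ± 0.15 in day 6 cells against astrocytes. How much delivered c-Myc RNA the Myc probe set detects was not tested.

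Faults in ribosome assembly are known to set off a p53 response. Of 8 measured genes linked to such faults or to p53, 1 (Cdkn2a) rose and 1 (Sesn1) fell in day 6 cells against astrocytes. Of all genes, 6.75% rose and 10.1% fell, and the median of the 8 was 0.07. Against neural stem cells 5 of the 8 were higher and 1 was lower in day 6 cells with no fold limit, with a median of 0.57, where 20.0% of all genes were higher and 18.4% lower. Cdkn2a, which encodes p16 and the nucleolar protein Arf, read 7.93, 8.23 and 8.11 in astrocytes, 9.51, 9.49 and 9.63 in day 6 cells, 7.19 and 7.16 in neural stem cells, 7.73 and 7.99 in astrocyte iPSCs, and 7.58 and 7.57 in MEF iPSCs. Day 6 cells were the highest group with no overlap, at 1.45 ± 0.09 against astrocytes and 2.37 ± 0.10 against neural stem cells. Sesn1, a stress-response gene that p53 induces, fell by 1.73 ± 0.11 against astrocytes.

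**Figure D5:**
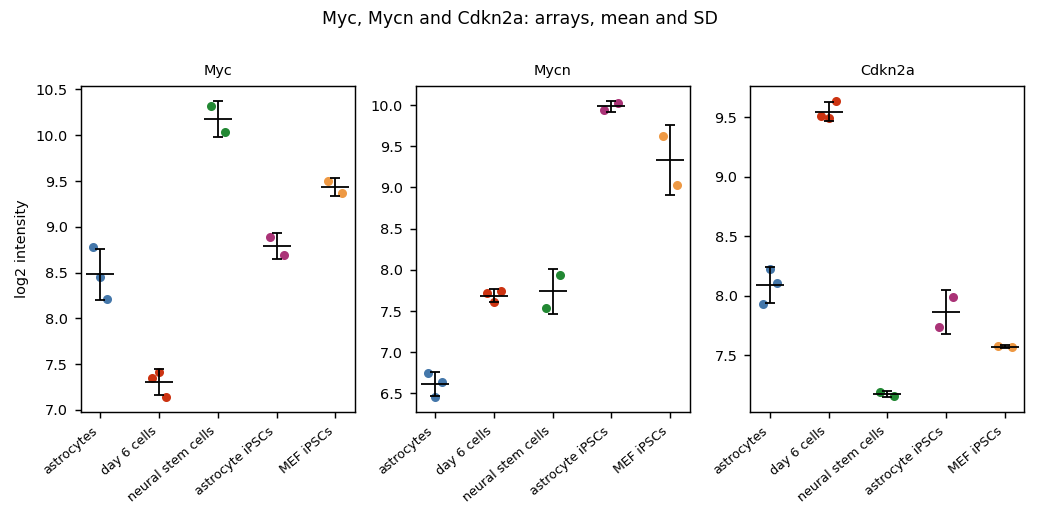
Panels show the log2 intensity of Myc, Mycn and Cdkn2a on each array, with a black bar for the group mean and its SD (n = 3 for astrocytes and day 6 cells, n = 2 otherwise). Vertical axes differ between panels. Day 6 cells are the lowest group for Myc and the highest for Cdkn2a, and for Mycn they overlap with neural stem cells.

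Because the members rose together, their promoters were searched for short motifs on both strands. Sequences from RefSeq (build GRCm38.p6), from 250 bases before the start to 50 after it, were held for 29 of the 35 genes. The E-box CACGTG, the motif known to bind Myc with Max, was present in 6 of 29 (20.7%), against 9.49% of 15611 measured genes and 7.15% of all 32851 promoters of the same length. Those 6 were Mybbp1a, Nop2, Pes1, Tsr1, Utp20 and Wdr43. The ETS core CGGAAG was present in 15 of 29 (51.7%), against 24.7% of measured genes and 16.9% of all promoters. A variant E-box, CACGCG, was present in 7 (24.1%, against 14.9% of measured genes and 9.27% of all promoters), and CCAAT in 8 (27.6%, against 41.7% and 37.4%). The variant E-box shares 5 of its 6 letters with the E-box, and no match of one overlaps a match of the other in the promoters printed here. Base composition was not matched between members and other genes, and a match is not a measured site.

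Each E-box is shown with up to 12 bases on either side, as they allow a look at the flanking bases that the motif count leaves out. All are written 5′ to 3′ on the strand of the gene, with the E-box in capitals. That of Nop2 lay before the start, at -60 to -55, and the other 5 lay after it.
Nop2 (chr6:125131811-125131840, plus strand): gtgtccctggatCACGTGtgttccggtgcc
Mybbp1a (chr11:72441355-72441376, plus strand): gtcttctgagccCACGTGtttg
Pes1 (chr11:3963965-3963994, plus strand): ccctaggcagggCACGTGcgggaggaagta
Tsr1 (chr11:74898092-74898121, plus strand): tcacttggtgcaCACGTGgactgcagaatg
Utp20 (chr10:88826765-88826789, minus strand): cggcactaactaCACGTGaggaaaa
Wdr43 (chr17:71616220-71616249, plus strand): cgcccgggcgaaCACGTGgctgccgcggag
The 6 genes with an E-box rose by a median of 1.76 in day 6 cells against astrocytes and the 23 without by 1.80, and they included both a small rise (Pes1, 1.01) and a large one (Wdr43, 2.41).

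The 250 bases before the start are shown for 3 genes: Nop2, the 1 gene with an upstream E-box, and Ddx21 and Nolc1, which lack one and rose more. The last 2 were picked for display, and the rise of Nop2 (1.77) is the median of the 35 members. Ddx21 also has a variant E-box after its start, at 39 to 44, outside the bases shown. Capitals mark the E-box, the variant E-box and the ETS core on either strand.
Nop2 (chr6:125131633-125131882, plus strand): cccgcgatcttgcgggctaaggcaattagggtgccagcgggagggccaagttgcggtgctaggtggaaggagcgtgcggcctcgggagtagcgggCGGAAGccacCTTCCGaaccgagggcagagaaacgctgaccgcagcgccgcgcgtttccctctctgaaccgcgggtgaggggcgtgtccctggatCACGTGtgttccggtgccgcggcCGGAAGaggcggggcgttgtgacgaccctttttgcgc
Ddx21 (chr10:62602299-62602548, minus strand): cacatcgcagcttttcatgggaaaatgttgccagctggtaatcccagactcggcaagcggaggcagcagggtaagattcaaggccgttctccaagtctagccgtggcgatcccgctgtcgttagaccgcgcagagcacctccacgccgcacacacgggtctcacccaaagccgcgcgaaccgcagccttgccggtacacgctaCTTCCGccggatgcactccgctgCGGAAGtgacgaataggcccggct
Nolc1 (chr19:46075597-46075846, plus strand): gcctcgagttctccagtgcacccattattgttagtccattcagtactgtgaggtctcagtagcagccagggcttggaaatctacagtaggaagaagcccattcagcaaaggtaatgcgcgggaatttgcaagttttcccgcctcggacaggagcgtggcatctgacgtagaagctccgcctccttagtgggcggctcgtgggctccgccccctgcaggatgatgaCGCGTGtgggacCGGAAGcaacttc
Nop2 rose by 1.77 ± 0.10 in day 6 cells against astrocytes, Ddx21 by 2.42 ± 0.10 and Nolc1 by 2.24 ± 0.09. The ETS core stands in all 3 sequences, in either direction. Over the 29 genes, the 15 with an ETS core rose by a median of 1.77 and the 14 without by 1.89, and this difference was not tested.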

How the data were processed

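The authors deposited linear probe set intensities, and the submitters' processing notes name robust multi-array averaging (RMA), with the version not given in the sources used here. The values ran from 20.2 to 15436 and were turned to log2 here, and whether an offset was added before deposit, which would shrink differences of dim genes, was not tested. Of 28853 probe sets, 21789 carry 1 gene symbol. The brightest of these was kept for each of 19938 genes, and 3 members had several.

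Group means over the 12 arrays were estimated with limma 3.58.1 under R 4.3.3 (7 residual and 10.9 total degrees of freedom), with Benjamini-Hochberg adjustment over all genes. Calls needed an adjusted p under 0.05 with a log2 difference of 1 or more in size, and a second count used no fold limit. Errors are limma SE for differences. The code was tested on simulated data. The number of arrays limits the precision. Members and lists were chosen with earlier results of these data known. Members shown array by array include the largest difference of each role, those near the fold limit and those against the trend, and other lists give up to 4 called genes, with Myc and Mycn always. No label says that same-numbered arrays are pairs, so the numbers were not used as pairs. Deviations of same-numbered astrocyte and day 6 arrays correlated at 0.41, -0.01 and 0.22. Those of MEF iPSC replicate 1 correlated at 0.40 with astrocyte replicate 1 and at 0.41 with day 6 replicate 1. With so few arrays, these values cannot decide whether samples were paired, and a shared technical effect was not tested. Alternatives averaged a gene's probe sets, left out dim genes, used cyclic loess or centred arrays, added or subtracted 16 units before log2, changed the variance settings, fitted only the groups compared, used an adjusted p under 0.01 or the replicate block, and left out each array. Plots used matplotlib 3.10.9, and tables were made in Python 3.11.15 with numpy 2.4.6 and pandas 2.3.3.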

Additional observations from a re-analysis of the deposited data

Results flagged for a closer look

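The 3 members below differed between the iPSC groups by the test of the difference itself, at an adjusted p under 0.05 in limma with no fold limit. They make 3 of 35 members higher and 0 lower in astrocyte iPSCs, against 3.28% and 2.49% of all genes. Polr1a was higher in astrocyte iPSCs by 0.36, Gar1 by 0.49 and Wdr43 by 0.43. Each was higher on 2 of 2 astrocyte iPSC arrays than on both MEF iPSC arrays. Wdr43 kept an adjusted p under 0.05 without astrocyte iPSC replicate 1 or MEF iPSC replicate 2, but not without astrocyte iPSC replicate 2 (0.058) or MEF iPSC replicate 1 (0.078). Polr1a had adjusted p of 0.058 to 0.13 and Gar1 of 0.069 to 0.25 when any 1 of the 4 arrays was left out. The reporter, the cell of origin and the line differ between these groups and cannot be told apart. The fibroblast and feeder sum differed as well, at 3263 to 5768 in astrocyte iPSCs and 2729 to 2892 in MEF iPSCs. Its part in these differences was not tested.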

How the results depend on the processing

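No member changed sign past a threshold under any alternative run. With no fold limit, 525 of 525 gene values in day 6 cells against astrocytes stayed past an adjusted p of 0.05, as did 490 of 490 in astrocyte iPSCs against astrocytes; against neural stem cells 19 of 490 fell short and 4 newly passed. With the fold limit, the 33 calls in day 6 cells against astrocytes became 30 under cyclic loess, 34 with arrays centred on the median, and 32 with 16 added before log2 or without astrocyte replicate 3 or day 6 replicate 1. The median rise in day 6 cells was 1.60 under cyclic loess and 1.87 with arrays centred on the median; cyclic loess gave 1.02 for neural stem cells and 1.72 for astrocyte iPSCs against astrocytes. Dropping the fold limit gave 32 members in day 6 cells against neural stem cells, 16 in astrocyte iPSCs and 11 in MEF iPSCs against day 6 cells, 3 between the iPSC groups and 35 in neural stem cells against astrocytes. With no fold limit, leaving out each array gave 7 to 13 members in astrocyte iPSCs against day 6 cells (7 without astrocyte iPSC replicate 1), 6 to 11 in MEF iPSCs (6 without replicate 1) and 0 to 1 between the iPSC groups. An adjusted p under 0.01 left 7 for MEF iPSCs against day 6 cells and 1 between the iPSC groups, where subtracting 16 before log2 also left 1. With the replicate block, day 6 cells had 33 calls against astrocytes, and the block moved no count by over 1.5 times. Where leaving out an array leaves 1, that array is assumed to vary like the other groups. Dim signal limits small differences.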
